A study of Mus musculus with 653 samples.

Results

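Cells with reads of both *Klf1* and *Gata1* and little adult globin were compared between mouse embryonic livers of 2 stages, E10.5 and E13.5 (days of gestation). A cell was included if it came from the bulk sort, held more than 10 reads of *Klf1* and more than 10 of *Gata1*, and had a sum of *Hba-a1*, *Hba-a2*, *Hbb-bs* and *Hbb-bt* below 2000 reads per 1000000 reads on genes in that cell (RPM). This selected 96 of all 653 cells, of which 26 came from the E10.5 bulk sort and 70 from the E13.5 bulk sort.

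The embryos came from Lgr5-EGFP-IRES-creERT2 males on a C57BL/6 background and MF1 females, so all cells share this cross. Livers were digested to single cells, for longer at E13.5 than at E10.5, and Liv2+ CD31- CD45- cells were sorted as bulk, or with GFP from the *Lgr5* locus as Lgr5-GFP+ cells. Bulk cells are not selected on GFP. Each deposited sample is 1 cell made into a Smart-seq2 library. The labels give the stage, the sort and 5 library pools, but no animal, litter or sorting day, so each stage counts as 1 sample, and no test between the stages was possible. Whether the pools match separate sorts or animals is not given in the sources used here, and stage, litter and digestion time cannot be told apart.

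*Gata1* and *Klf1* encode the transcription factors that drive red cell differentiation, and their activity precedes the bulk of globin synthesis. In the mouse embryo, primitive red cells arise in the yolk sac and express the embryonic globins *Hbb-bh1*, *Hbb-y* and *Hba-x*. The foetal liver is then colonised by definitive progenitors, which mature there under erythropoietin and Kit signals and express adult globins.

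Erythroid genes that the selection did not use were checked first. Each cell had more than 10 reads of at least 3 of 16 erythroid genes outside the rule, with a median of 10 of the 16 at both stages. The summed level of these genes ran from 862 to 7679 RPM at E10.5 (median 4564) and from 634 to 14972 RPM at E13.5 (median 6162). The sample label names the sorted cells as hepatoblasts, but *Alb* stood at 0.650 RPM at E10.5 and 0.316 RPM at E13.5, and *Afp* at 0.711 and 0.0394 RPM. No cell had more than 10 reads of 3 of the 12 hepatoblast genes or of 3 of the 11 mesenchymal genes examined. *Ptprc*, which encodes CD45, stood at 0.0309 and 0.0263 RPM.

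The selected cells made up 12.8% of E10.5 bulk cells (exact 95% interval 8.54 to 18.2%) and 44.03% of E13.5 bulk cells (36.2 to 52.1%). These intervals, like all others given here, cover counting error only, since cells of 1 stage are not replicates and amplified reads are not independent molecules. The globin limit removed 1 of 27 cells with both factors at E10.5 and 30 of 100 at E13.5. The highest cell inside that limit held 1925 RPM of the 4 globins and the lowest outside it 2005 RPM. *Klf1* had at least 34 reads in the selected cells, and *Gata1* at least 13. Bulk cells under the globin limit that passed for only 1 factor had at most 5 reads of the other. By pool 1 to 5, the E10.5 cells numbered 1, 1, 6, 12 and 6, and the E13.5 cells 15, 6, 17, 21 and 11. The selected share of bulk cells ran from 2.38% (pool 1) to 28.6% (pool 4) at E10.5. At E13.5 it ran from 17.6% (pool 2) to 61.8% (pool 4), so pools spread beyond both intervals. Median depth was 1310557.5 reads at E10.5 and 1063940.5 at E13.5, with medians of 7070.5 and 6120 genes detected.

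The rule genes are given as a description only. *Klf1* ran from 160 to 2731 RPM (median 848) in E10.5 cells and from 25.8 to 3682 RPM (median 896) in E13.5 cells. *Gata1* ran from 9.499 to 1608 RPM (median 332) and from 10.6 to 2402 RPM (median 362). The 4 adult globins summed to medians of 187.3 RPM (18.7 to 1897) and 135.01 RPM (6.35 to 1925).

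The stages were then compared gene by gene. A gene was compared if it had a read in at least 25% of the cells of 1 stage and at least 10 RPM in the summed cells of 1 stage. The ratio is that of summed RPM with 1 RPM added, given as log2 of E13.5 over E10.5. A gene was called if the ratio reached 2-fold (log2 of 1) and had the same sign within pools 3, 4 and 5, the 3 pools with at least 3 cells of each stage. Among 7686 genes compared, 452 were called higher at E13.5 (5.88%) and 375 higher at E10.5 (4.88%). The median ratio was -0.02, and 3740 of the 7686 genes had a ratio above 0. Without the demand on pools, 698 and 795 genes passed 2-fold. These shares are the background for every count below. They carry no error rate, because cells within 1 sample also vary, and no gene separated every E10.5 cell from every E13.5 cell. When 1 read of each factor was enough for selection (95 cells of each stage), 13 of the 55 called genes taken by the naming rule changed sign, among them *Cited4*, *Slc16a1*, *Ptpn6*, *Cd24a*, *Ireb2*, *Hmox1*, *Dusp1*, *Zfp36* and *Atf3*. Of the genes described here, calls were lost most often for *Pgam1* (12 of 23 alternatives), *Fen1*, *Igf2bp2* and *Prdx5* (10 each) and *Mvk* (8), then for *Pkm*, *Ireb2* and *Gm4366* (7 each) and *Cited4*, *Ptpn6*, *Hmox1* and *Zfp36* (6 each). A gene low at 1 stage could pass the filter through the other stage alone, so list counts and medians describe only the genes that passed.

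**Figure D1:**
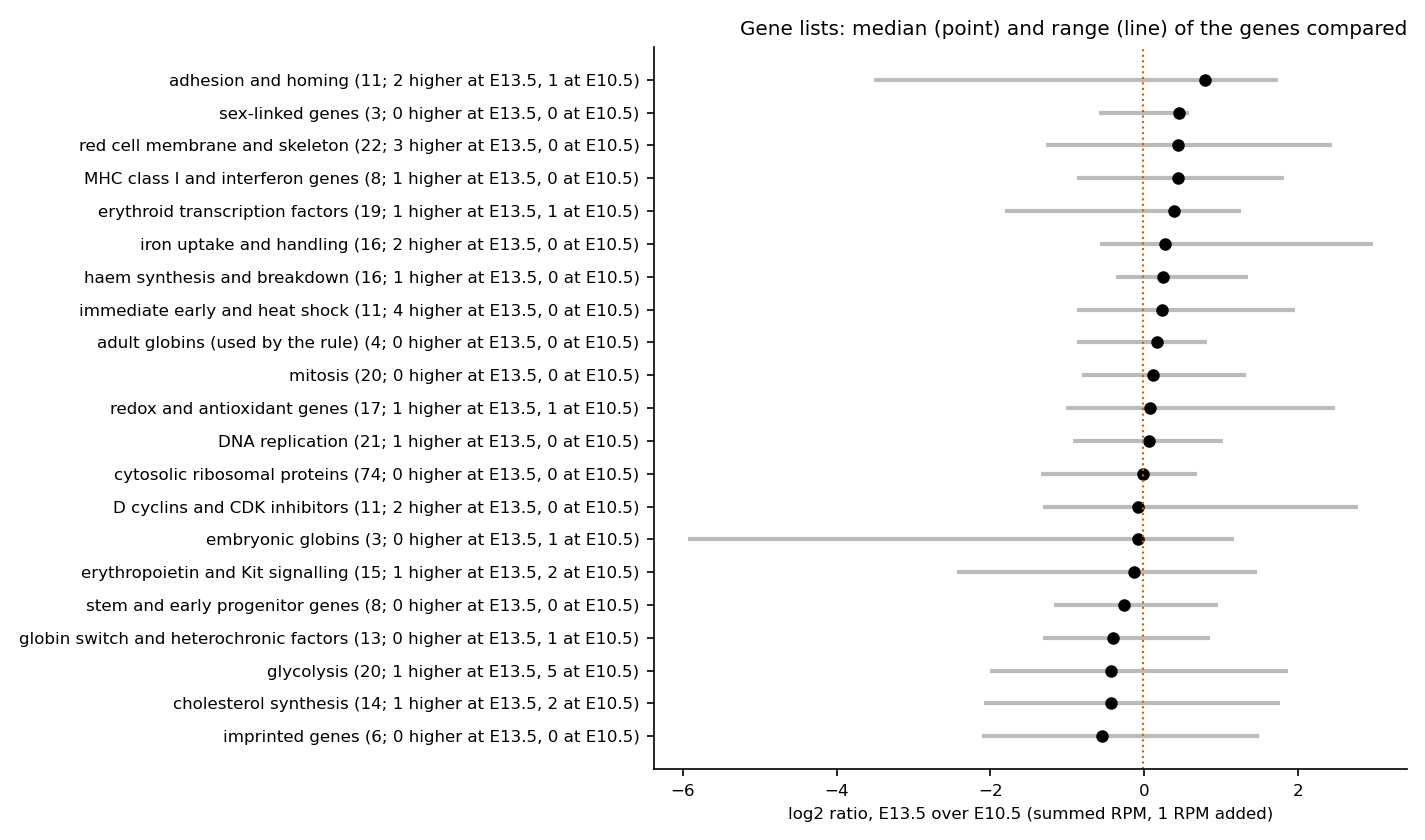
Median (point) and range (line) of the log2 ratio, E13.5 over E10.5, for each gene list on the vertical axis, with the number of genes compared and called in parentheses; the dotted line is the median of all 7686 genes. Glycolysis sits left of that line with 5 genes higher at E10.5, and red cell membrane genes sit right of it with 3 higher at E13.5.

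The embryonic globin *Hbb-bh1* had the largest ratio of all genes higher at E10.5. *Hbb-bh1* (chr7:103841637-103843164, minus strand, GRCm38) encodes the βh1 chain of embryonic haemoglobin. Its level ran from 0 to 24718 RPM at E10.5 with a median of 129.4 RPM. At E13.5 it ran from 0 to 1714 RPM with a median of 1.06 RPM. The ranges overlapped, but 18 of 26 E10.5 cells (69.2%, interval 48.2 to 85.7%) held more than 10 reads against 12 of 70 E13.5 cells (17.1%, 9.18 to 28.03%). Summed levels were 1495 and 23.6 RPM, a log2 ratio of -5.93, with -9.09, -5.43 and -2.81 in pools 3, 4 and 5. The highest 4 of the E10.5 cells held 24718, 7878, 6714 and 4456 RPM, and no E13.5 cell reached 2000 RPM. With the 2000 RPM limit set on all 7 globins, which leaves 22 and 69 cells, the ratio was -4.76. A single cell gave 34.99% of the E10.5 reads, and 1 cell gave 65.7% of those at E13.5. Among 37 E10.5 bulk cells with no read of *Klf1* or *Gata1*, 3 had more than 10 reads (8.11%). In all other bulk cells, which at E13.5 include the 30 over the globin limit, *Hbb-bh1* stood at 413.7 and 292.5 RPM (-0.50).

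The other embryonic globins were not called. *Hba-x*, the embryonic α chain, stood at 48.2 RPM at E10.5 and 45.5 RPM at E13.5 over all cells, but was lower at E13.5 within pools 3, 4 and 5 (-2.76, -3.13 and -3.60). *Hbb-y*, the εy chain, stood at 14.7 and 34.1 RPM, with -2.91, -0.40 and 0 in these pools. At E13.5 most of their reads lay in pool 1, where *Hba-x* reached 196.02 RPM and *Hbb-y* 131.2 RPM, against 0 RPM in pool 2 for both. Pool 1 holds 15 of the 70 E13.5 cells but 1 of the 26 E10.5 cells, so it weighs on the E13.5 sum alone. Outside the selected cells, pool 1 had more than 10 reads of *Hba-x* in 34 of 41 E10.5 and 19 of 19 E13.5 bulk cells, and pool 2 in none of 40 and 28. The part of the pool in these levels was not tested. Of the adult globins, on which the selection acted, none was called, and their ratios changed sign between pools. The near-identical copies *Hba-a1* and *Hba-a2*, and *Hbb-bs* and *Hbb-bt*, share reads, so their separate levels are uncertain.

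Of the erythroid regulators compared, 1 was called in each direction, beside 5.88% (higher at E13.5) and 4.88% (higher at E10.5) of all genes compared. Of 21 erythroid transcription factor genes, 19 were compared, with a median log2 ratio of 0.38 and 12 above 0. *Cited4*, a transcriptional co-regulator, was called higher at E10.5, and *Lmo2*, a bridge in the Gata1 and Tal1 complex, higher at E13.5. *Cited4* ran from 14.3 to 1540 RPM at E10.5 (median 631) and from 0 to 1800 RPM at E13.5 (median 165.6). All 26 E10.5 cells and 51 of 70 E13.5 cells (72.9%, interval 60.9 to 82.8%) had more than 10 reads. Its log2 ratio was -1.14, and -1.23, -0.39 and -1.62 in the pools. None of the 37 E10.5 bulk cells without *Klf1* and *Gata1* had more than 10 reads of *Cited4*. In all other bulk cells, among which the E13.5 cells include the 30 over the globin limit, *Cited4* was higher at E13.5, at 71.2 and 438 RPM.

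*Lmo2* reached 126.7 RPM at E10.5 and 667 RPM at E13.5, with medians of 0.343 and 0.995 RPM, so most cells of both stages were near 0. In this list, *Gfi1b*, a repressor needed for red cell maturation, had a median of 127.2 RPM at E10.5 and 364 RPM at E13.5. Its log2 ratio of 0.98 fell short of the fold, although it was 1.04, 1.55 and 0.99 in the pools. *Tal1* (-0.38), *Nfe2* (-0.51) and *Ldb1* (0.20) also stayed within 2-fold. *Zfpm1* and *Cbfa2t3* are listed at 0 in every cell. The same holds for *B2m*, *G6pdx* and the ribosomal protein gene *Rpl13*, so such a 0 is not read as absence of expression.

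Of 16 genes of the globin switch and of developmental timing, 13 were compared and 1, *Igf2bp2*, was called higher at E10.5. The median log2 ratio of the 13 was -0.40, with 2 above 0, and -0.39, -0.28 and -0.31 in pools 3, 4 and 5. *Igf2bp2*, an RNA-binding protein gene, had more than 10 reads in 2 of 26 and 6 of 70 cells. *Lin28b*, which blocks let-7 maturation, stood at 107.9 RPM and 62.1 RPM (log2 ratio -0.79) with opposite signs in the pools. *Bcl11a*, a repressor of embryonic globins, stood at 217 and 163.7 RPM (-0.40), and *Sox6*, its partner, at 18.3 and 16.4 RPM (-0.15). *Myb*, which sustains definitive progenitors, stood at 120.8 and 127.3 RPM (0.08). None of 8 stem and early progenitor genes compared was called, and *Kit* stood at 99.4 and 96.1 RPM.

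Of 15 erythropoietin and Kit signalling genes compared, *Pim1* and *Ptpn6* were called higher at E10.5 and *Bcl2l11* higher at E13.5. *Pim1* (chr17:29490753-29496112, plus strand) encodes a survival kinase downstream of Stat5. It ran from 0 to 116.7 RPM at E10.5 (median 33.4) and from 0 to 85.4 RPM at E13.5 (median 0). More than 10 reads were found in 17 of 26 cells (65.4%, interval 44.3 to 82.8%) and 9 of 70 cells (12.9%, 6.05 to 23.01%). The log2 ratio was -2.43, and -3.24, -2.23 and -1.81 in the pools. In the other bulk cells, which at E13.5 include the 30 cells over the globin limit, the ratio was -1.40.

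*Ptpn6*, a phosphatase that dampens cytokine receptors, had medians of 102.4 and 2.30 RPM (log2 ratio -1.09). *Bcl2l11*, a pro-apoptotic gene, had a median of 0 at both stages and more than 10 reads in 4 of 26 and 14 of 70 cells. *Epor*, the erythropoietin receptor, stood at 254 and 325 RPM (0.35), and *Jak2* at 52.99 and 65.1 RPM (0.29). *Bcl2l1*, an anti-apoptotic target of this pathway, was lower at E13.5 in sum (-1.44) but not in pool 5 (1.43).

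Ratios above 0 were found for 10 of 16 haem, 10 of 16 iron and 17 of 22 red cell membrane genes compared. Over all genes compared this held for 3740 of 7686. Among these genes, 1 haem, 2 iron and 3 membrane genes were called, all higher at E13.5, beside 5.88% of all genes compared. For haem, 16 of 19 were compared, with a median ratio of 0.24 and 1 call (*Hmox1*, haem breakdown, higher at E13.5). *Fech*, the enzyme that inserts iron into haem, stood at 299 and 279 RPM. *Alas2* is listed at 0 in every cell, which is likewise not read as absence of expression. *Hmox1* had more than 10 reads in 2 of 26 and 7 of 70 cells.

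For iron, 16 of 17 genes were compared (median 0.27), and *Ftl1* and *Ireb2* were called higher at E13.5. *Ftl1* (chr7:45457944-45459884, minus strand) encodes the ferritin light chain. It ran from 0 to 119.2 RPM at E10.5 (median 5.07) and from 0 to 2149 RPM at E13.5 (median 94.6). The ranges overlapped, with more than 10 reads in 13 of 26 cells and 50 of 70 cells. The log2 ratio was 2.97, and 2.97, 2.70 and 2.64 in the pools, and 1.71 in the other bulk cells. *Ftl1* has near-identical copies in the genome, so its level is uncertain. *Fth1*, the ferritin heavy chain, stood at 3254 and 4856 RPM (0.58) and was above 700 RPM in every cell. *Tfrc*, the transferrin receptor, stood at 311 and 275 RPM.

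Of 24 membrane and skeleton genes, 22 were compared, with a median ratio of 0.44 and 17 above 0. *Aqp1*, a water channel, *Cd24a*, a surface glycoprotein, and *Dmtn*, which bundles actin, were called higher at E13.5. *Cd24a* ran from 0 to 506.5 RPM at E10.5 (median 6.20) and from 0 to 1796 RPM at E13.5 (median 270). It had more than 10 reads in 12 of 26 (46.2%, interval 26.6 to 66.6%) and 57 of 70 cells (81.4%, 70.3 to 89.7%). Its log2 ratio was 1.51, with 0.88, 1.49 and 2.39 in the pools. *Aqp1* had more than 10 reads in 6 of 26 and 36 of 70 cells, with a median of 0 at E10.5 and 15.9 RPM at E13.5. *Dmtn* had a median of 0 at both stages and more than 10 reads in 2 of 26 and 11 of 70 cells. A single cell gave 51.8% of the E13.5 reads of *Dmtn*. *Ermap*, a blood group protein gene, stood at 603 and 1070 RPM (0.83), short of the fold.

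Of 22 glycolysis genes, 20 were compared and 5 were called higher at E10.5 against 1 at E13.5, with a median log2 ratio of -0.43. The 5 were *Slc16a3*, *Slc16a1*, *Pkm*, *Pfkp* and *Pgam1*. *Pkm* and *Pgam1* were not called with TMM or median ratio size factors, without pool 1, without pool 3 or in pools 3 to 5 alone. *Slc16a1* and *Pfkp* lost their calls under 3 alternatives each, and *Slc16a3* under 1. *Slc16a3*, a lactate exporter, ran from 0 to 914 RPM at E10.5 (median 259) and from 0 to 422 RPM at E13.5 (median 0.817). More than 10 reads were found in 23 of 26 (88.5%, interval 69.8 to 97.6%) and 27 of 70 cells (38.6%, 27.2 to 50.97%). Its log2 ratio was -2.01, and -2.75, -1.24 and -0.85 in the pools.

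*Slc16a1*, the other monocarboxylate transporter, had medians of 203.4 and 79.9 RPM (-1.19). *Pkm*, pyruvate kinase, ran from 57.9 to 1097 RPM at E10.5 (median 460) and from 0.631 to 1392 RPM at E13.5 (median 225). *Pfkp*, a phosphofructokinase, had more than 10 reads in 12 of 26 and 8 of 70 cells. *Ldha*, lactate dehydrogenase, was lower at E13.5 in sum (3589 and 2124 RPM, -0.76) and in pools 3, 4 and 5 (-0.59, -0.55 and -0.66) without reaching the fold. *Tpi1*, triosephosphate isomerase, stood at 1042 and 1012 RPM (-0.04).

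*Gapdh* was called higher at E13.5, at 7.36 and 29.4 RPM, and *Pgam1* higher at E10.5, at 16.3 and 7.44 RPM. Both have near-identical copies, and unique alignment removes reads they share, so these levels are uncertain. In the other bulk cells *Pkm* had a log2 ratio of -2.19 and *Slc16a3* of -1.40, whereas *Slc16a1* had 1.09 and *Pfkp* 0.76.

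**Figure D2:**
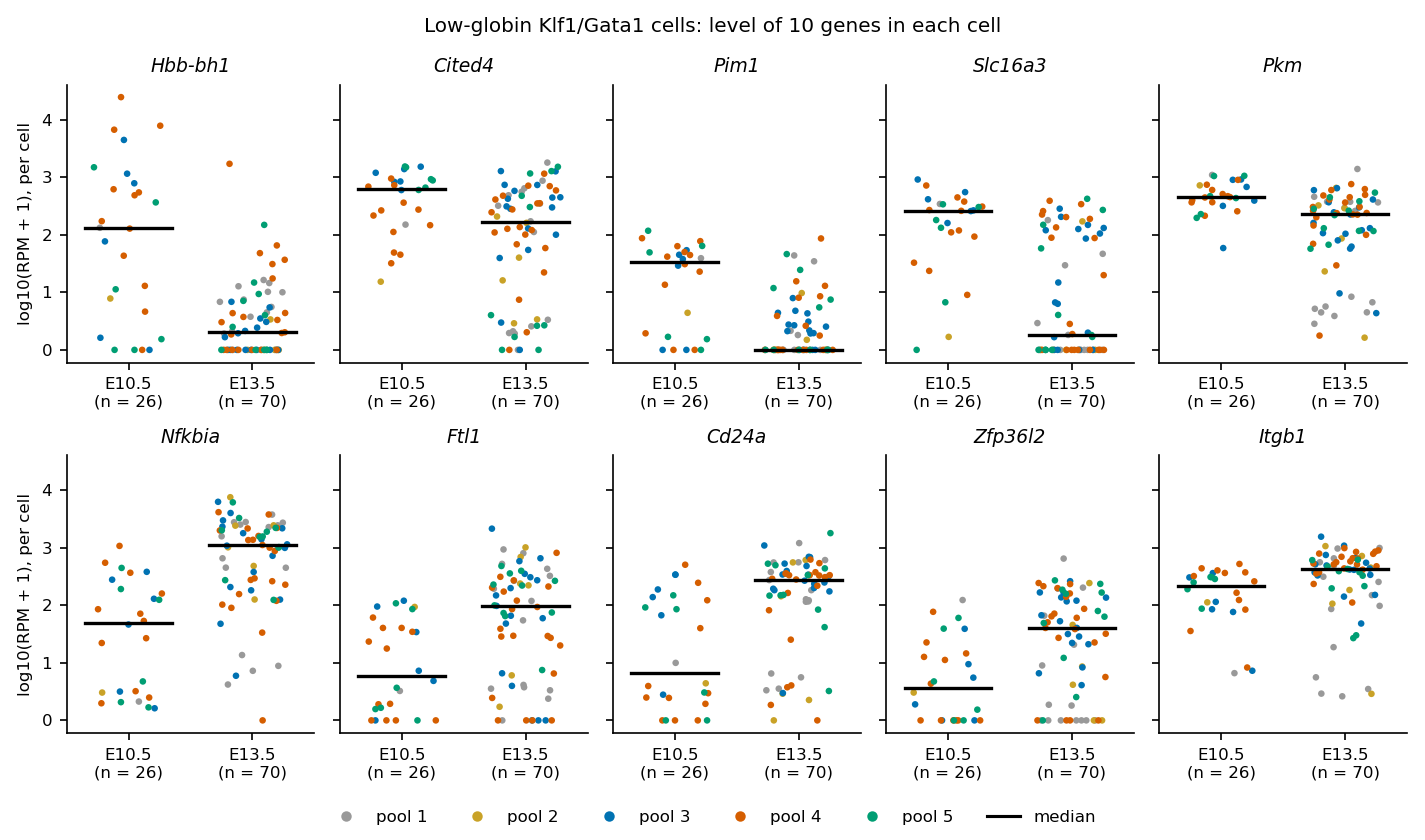
Level of 10 genes in each selected cell as log10(RPM + 1), with cells of E10.5 (n = 26) and E13.5 (n = 70) side by side, points coloured by library pool and black lines at the median. The E10.5 medians are higher in the upper row (*Hbb-bh1* to *Pkm*) and lower in the lower row (*Nfkbia* to *Itgb1*), with overlapping ranges in every panel.

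Among protein-coding genes with more than 10 reads in at least 50% of E13.5 cells and called higher there, *Nfkbia* (chr12:55489410-55492647, minus strand) had the largest ratio. It encodes IκBα, which holds NF-κB in the cytoplasm and is itself induced by NF-κB. *Nfkbia* ran from 0.624 to 1078 RPM at E10.5 (median 48.9) and from 0 to 7562 RPM at E13.5 (median 1102). More than 10 reads were found in 16 of 26 (61.5%, interval 40.6 to 79.8%) and 65 of 70 cells (92.9%, 84.1 to 97.6%). Summed levels were 131.9 and 1573 RPM, 11.8-fold apart (log2 ratio 3.57), with 3.28, 2.94 and 3.79 in pools 3, 4 and 5. Pools 1 and 2 held 1437 and 2681 RPM in E13.5 cells, so each of the 5 pools was high at that stage, against 1.12 and 2.05 RPM in their single E10.5 cells. The other bulk cells stood at 308 and 993 RPM (1.68).

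A list of 22 NF-κB genes was then written, after the value of *Nfkbia* had been seen. Of these, 14 passed the filter on low values, and 7 were called higher at E13.5, *Nfkbia* included, and 0 higher at E10.5. *Relb*, *Tnfaip3*, *Nfkbiz* and *Icam1* were under 10 RPM at E10.5 and passed through E13.5 alone, so this count is only a description. Among the subunits, *Relb* stood at 1.45 and 73.6 RPM (4.93) with more than 10 reads in 1 of 26 and 24 of 70 cells. *Nfkb2* stood at 26.9 and 95.03 RPM (1.78) with 5 of 26 and 38 of 70 cells. *Rela*, which encodes p65, stood at 44.8 and 74.8 RPM (0.73), and *Nfkb1* at 72.3 and 84.6 RPM (0.22), and neither was called. *Rel*, which did not pass the filter, was lower at E13.5, at 22.5 and 2.77 RPM (-2.64), with more than 10 reads in 3 of 26 and 4 of 70 cells.

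Besides *Nfkbia*, the inhibitor gene *Nfkbiz* was called, at 4.08 and 20.4 RPM (2.07), while *Nfkbib* (0.75) and *Nfkbid* (0.68) were not. Among the target genes, *Icam1*, an adhesion molecule, stood at 5.14 and 46.5 RPM (2.95), with more than 10 reads in 1 of 26 and 18 of 70 cells. *Birc3*, an inhibitor of apoptosis, stood at 11.4 and 37.3 RPM (1.63), with 5 of 26 and 25 of 70 cells. *Tnfaip3*, which ends NF-κB signalling, was at 0 in every E10.5 cell and had more than 10 reads in 8 of 70 E13.5 cells. None of the kinase genes *Ikbkb* (-0.45), *Chuk* (-0.47) and *Ikbkg* (-0.90) was called. In the other bulk cells the ratio was 2.94 for *Relb*, 2.97 for *Tnfaip3*, 2.65 for *Icam1*, 2.52 for *Nfkb2*, 0.41 for *Nfkbiz* and 0.01 for *Birc3*. In the Lgr5-GFP+ sort it was 2.30 for *Nfkbia*, 1.88 for *Relb*, 5.34 for *Tnfaip3*, 4.203 for *Icam1*, 2.67 for *Nfkb2*, 2.55 for *Nfkbiz* and 3.996 for *Birc3*. All 7 were thus above 0 in both other cell sets, and no difference between cell sets was tested.

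The promoters of called genes that hold a κB-like motif are printed here to show these letters, from 250 bases before to 50 bases after the transcription start, in RefSeq sequence of GRCm38.p6. Capitals mark GGANNNTCC, letters found within many κB sites, which reads the same on both strands. *Nfkbia* lies at chr12:55492598-55492897 (minus strand, 2 matches), *Tnfaip3* at chr10:19015361-19015660 (minus strand, 1 match) and *Icam1* at chr9:21015690-21015989 (plus strand, 1 match).
Nfkbia: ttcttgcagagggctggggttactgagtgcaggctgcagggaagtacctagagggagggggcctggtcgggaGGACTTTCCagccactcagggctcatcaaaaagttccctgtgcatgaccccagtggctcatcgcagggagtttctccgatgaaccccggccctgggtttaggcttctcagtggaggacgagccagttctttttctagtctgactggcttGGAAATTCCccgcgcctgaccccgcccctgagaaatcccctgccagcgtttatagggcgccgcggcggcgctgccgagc
Tnfaip3: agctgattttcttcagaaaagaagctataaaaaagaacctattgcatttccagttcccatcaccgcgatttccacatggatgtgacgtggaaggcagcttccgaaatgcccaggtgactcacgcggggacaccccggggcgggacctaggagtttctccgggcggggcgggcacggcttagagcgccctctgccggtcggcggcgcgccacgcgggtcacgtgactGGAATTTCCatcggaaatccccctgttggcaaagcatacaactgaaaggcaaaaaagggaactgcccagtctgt
Icam1: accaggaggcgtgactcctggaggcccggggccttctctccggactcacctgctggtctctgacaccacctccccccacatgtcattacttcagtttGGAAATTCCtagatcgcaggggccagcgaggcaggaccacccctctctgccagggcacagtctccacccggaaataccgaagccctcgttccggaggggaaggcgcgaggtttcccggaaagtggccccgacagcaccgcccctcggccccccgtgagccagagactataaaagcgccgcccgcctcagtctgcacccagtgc

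The motif is found in 8.57% of 27025 promoters of this length. Of the 22 listed genes, 17 had a promoter entry and 7 of these (41.2%) held the motif. Besides the 3 printed, these were *Nfkbie*, *Ikbkg*, *Tnf* and *Cxcl10*, none of which was called. *Nfkb2* and *Birc3*, which were also called, held no match in this window, and *Nfkb1*, *Relb*, *Nfkbiz*, *Ikbkb* and *Ccl2* had no entry. A match describes the letters only.

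**Figure D3:**
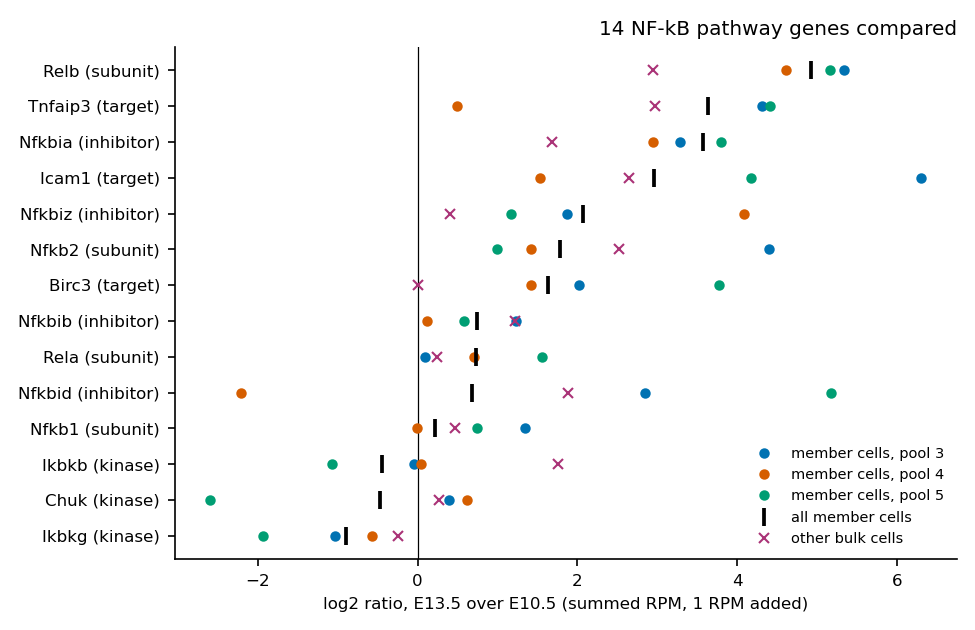
Log2 ratio, E13.5 over E10.5, of the 14 NF-κB pathway genes compared, for selected cells of pools 3, 4 and 5 (points), all selected cells (bars) and the other bulk cells (crosses). *Relb*, *Tnfaip3*, *Nfkbia* and *Icam1* lie farthest right, and the 3 kinase genes lie left of 0 over all selected cells.

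Of 11 immediate early and heat shock genes compared, 4 were called higher at E13.5 and 0 at E10.5, with a median ratio of 0.23. *Junb*, an AP-1 subunit, stood at 67.8 and 249 RPM (1.86), with 1.61, 1.22 and 2.30 in the pools. *Dusp1*, a MAP kinase phosphatase, stood at 42.8 and 113.6 RPM (1.39). *Zfp36*, which destabilises inflammatory mRNA, stood at 21.8 and 49.2 RPM (1.14), and *Atf3*, a stress-induced factor, at 6.16 and 26.8 RPM (1.96). Both had a median of 0 at each stage. *Atf3* had more than 10 reads in 2 of 26 and 13 of 70 cells, with ratios of 5.08, 0.31 and 5.61 in the pools. A single cell gave 91.96% of the E10.5 reads of *Atf3*. *Fos* (-0.10), *Ier2* (-0.19), *Egr1* (-0.87), *Jun* (0.81) and the heat shock genes *Hsph1* (0.23) and *Dnajb1* (0.09) were not called. In the other bulk cells the ratio was 0.68 for *Junb*, -0.12 for *Dusp1*, -1.19 for *Zfp36* and -3.41 for *Atf3*, so only *Junb* was higher there at E13.5. The longer digestion of E13.5 livers cannot be told apart from stage for these genes or for the NF-κB genes.

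Several further genes named as higher at E13.5 encode signalling and survival regulators. *Zfp36l2*, an mRNA decay factor of erythroid progenitors, ran from 0 to 122.5 RPM at E10.5 (median 2.70) and from 0 to 648 RPM at E13.5 (median 39.4). Its ratio was 2.48, and 2.91, 2.80 and 3.25 in the pools. *Pde4b*, a cAMP phosphodiesterase, had medians of 0 and 20.3 RPM and a ratio of 3.20. *Skil*, a repressor of TGFβ signalling, had medians of 1.30 and 20.5 RPM (2.52). *Bbc3*, a pro-apoptotic p53 target, had more than 10 reads in 7 of 26 and 38 of 70 cells (2.43). In the other bulk cells the ratio was 2.40 for *Zfp36l2*, 1.27 for *Pde4b*, 0.18 for *Skil* and 1.66 for *Bbc3*. At E13.5 those cells include the 30 over the globin limit.

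*Cdkn1a*, a cell cycle inhibitor and p53 target, had more than 10 reads in 3 of 26 and 19 of 70 cells (2.77). *Gclc*, which starts glutathione synthesis, had medians of 0.756 and 12.5 RPM (2.49). *Mvp*, the major vault protein gene, and *Oaf* had ratios of 1.97 and 2.18, and *4930523C07Rik*, annotated as protein coding, one of 3.10. *Ifngr1*, the interferon-γ receptor, was called at 46.3 and 165.3 RPM (1.82), *Itgb1*, the β1 integrin, at 216 and 455 RPM (1.07), and *Cd82*, a tetraspanin, at 15.1 and 52.8 RPM (1.74). The other bulk cells had ratios of 3.55 for *Cdkn1a*, 2.88 for *Gclc*, 2.28 for *Mvp*, 1.82 for *Oaf* and 2.25 for *4930523C07Rik*. There *Ifngr1* had 0.32, *Itgb1* 0.69 and *Cd82* 3.32.

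None of 20 mitosis genes was called (median 0.11). Of 21 DNA replication genes compared, *Fen1*, a flap endonuclease, was called higher at E13.5 (median 0.06). Of 11 cyclin and inhibitor genes compared, *Cdkn1a* and *Rbl1*, a pocket protein gene, were called higher at E13.5. None of 74 cytosolic ribosomal protein genes was called (median -0.02). *Prdx5*, a peroxiredoxin, and *Mvk*, a sterol synthesis enzyme, were called higher at E10.5, and *Srebf2*, which drives sterol synthesis, higher at E13.5. *Prdx5* was not called with TMM or size factors, nor *Fen1* and *Mvk* with the mean over cells. None of 6 imprinted genes compared was called.

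**Figure D4:**
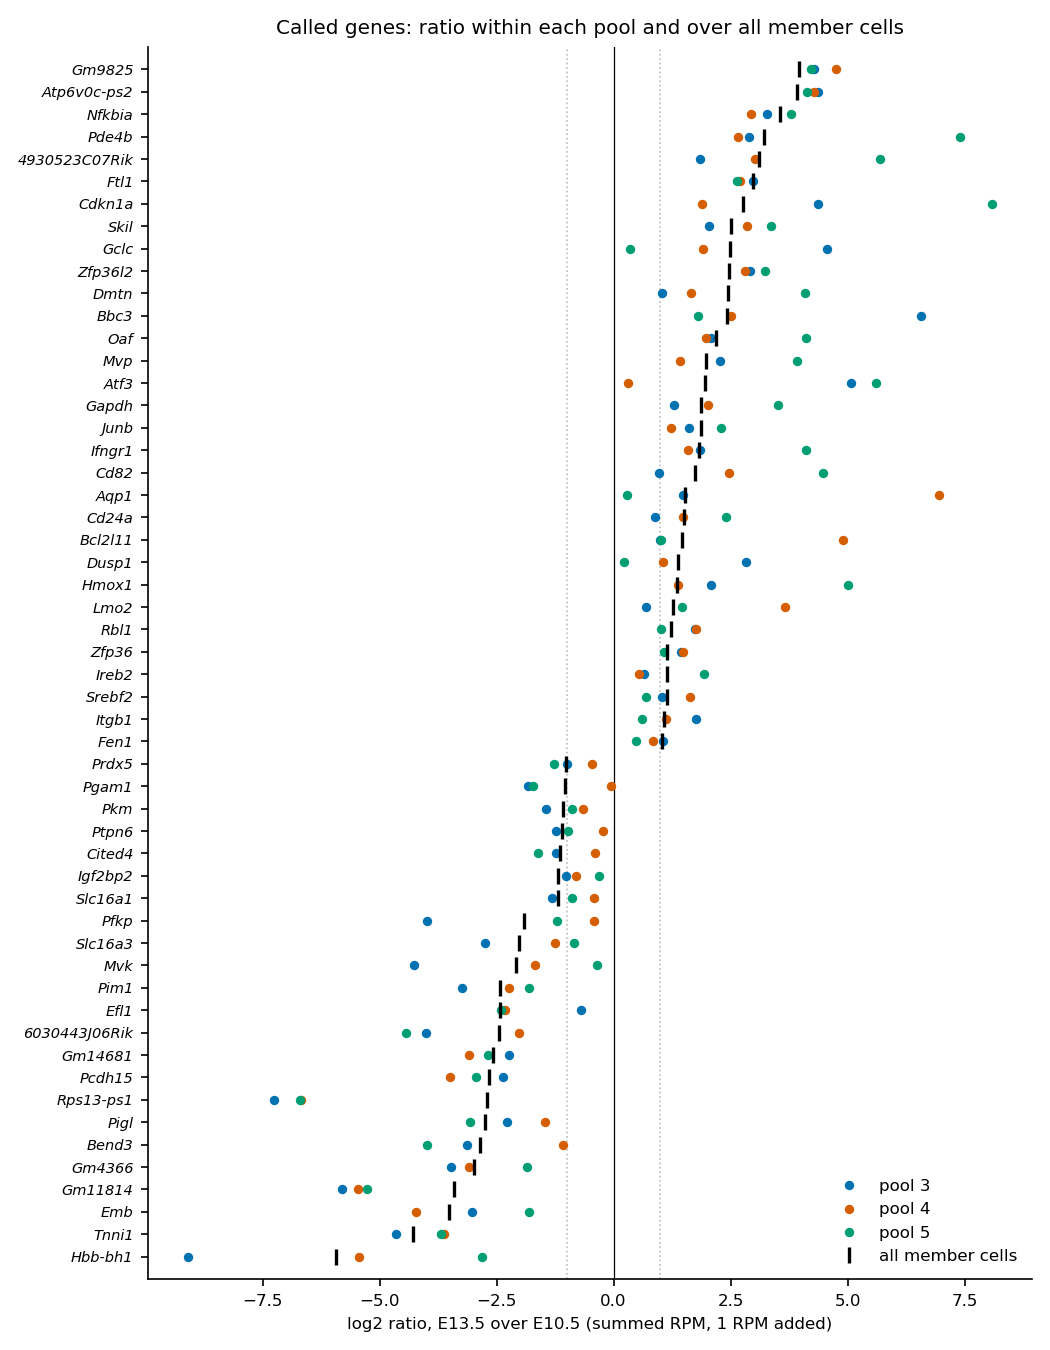
Log2 ratio, E13.5 over E10.5, of called genes taken by the naming rule, within pools 3, 4 and 5 (points) and over all selected cells (bars); dotted lines mark 2-fold. Pool values of *Nfkbia*, *Ftl1* and *Zfp36l2* lie within about 1 unit of each other, while those of *Hbb-bh1*, *Cdkn1a*, *Aqp1* and *Bbc3* spread widely.

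Some of the largest ratios belonged to genes that are not erythroid. *Rps13-ps1*, a processed pseudogene, had more than 10 reads in 24 of 24 E10.5 cells of pools 3 to 5 and in 0 of 49 E13.5 cells of these pools, which allows a share of up to 6.12%. In pools 1 and 2 it was present in 19 of 21 E13.5 cells. The same pattern stood in the other bulk cells of pools 3 to 5, at 77.1% of E10.5 and 0 of 42 E13.5 cells, and in the Lgr5-GFP+ sort, at 84.9% and 2.50%. The pseudogenes *Gm11814* and *Gm4366* were likewise absent at more than 10 reads from E13.5 cells of pools 3 to 5 in all 3 cell sets. Like *Gm14681*, *Gm9825* and *Atp6v0c-ps2*, these genes have near-identical copies, so their levels are uncertain.

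*Gm9825* and *Atp6v0c-ps2* were at more than 10 reads in 0 of 26 E10.5 cells and in 46 and 38 of 70 E13.5 cells. Outside the selected cells, 35.03% and 26.6% of the other E10.5 bulk cells had them. *Tnni1*, slow skeletal troponin I, stood at 120 and 5.22 RPM (-4.28), with more than 10 reads in 13 of 24 E10.5 cells of pools 3 to 5. The other E10.5 bulk cells of these pools had it in 45.8% and those of pools 1 and 2 in 2.47%. These values show a difference in cells of every kind between the E10.5 and E13.5 cells of pools 3 to 5, so stage and preparation cannot be told apart there. Its part in the ratios of other genes was not tested.

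**Figure D5:**
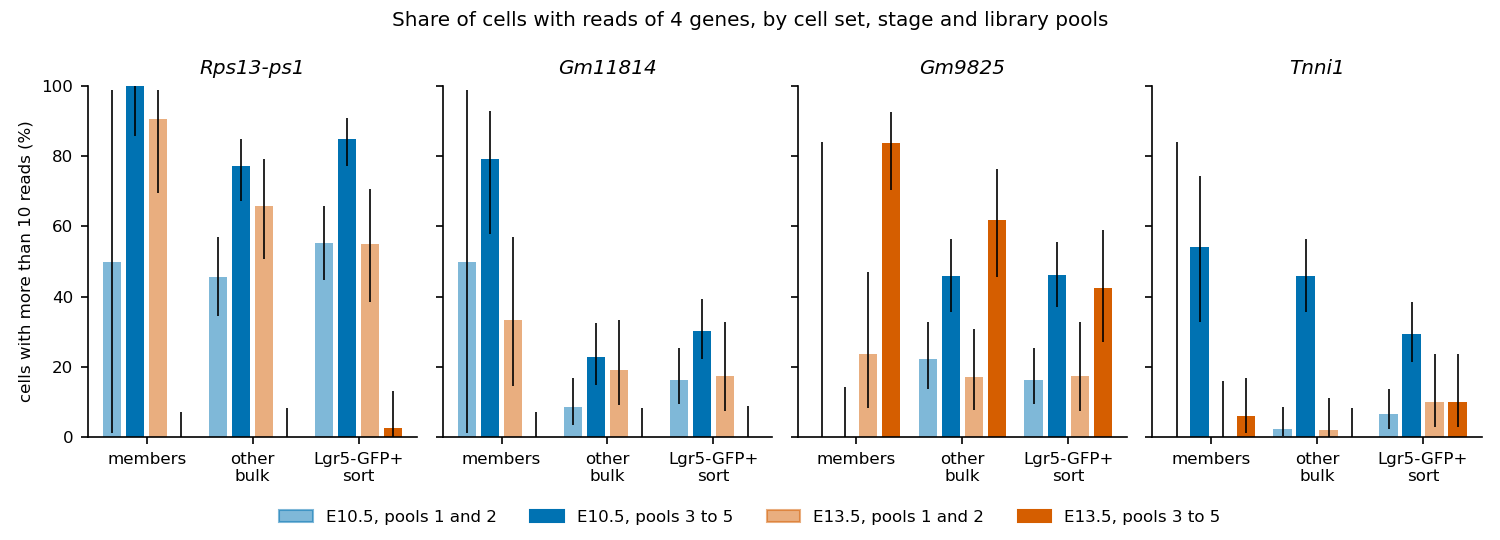
Percentage of cells with more than 10 reads of *Rps13-ps1*, *Gm11814*, *Gm9825* and *Tnni1* in selected cells, other bulk cells and Lgr5-GFP+ cells, by stage (colour) and pools 1 and 2 (light) or 3 to 5 (dark); lines are exact 95% intervals. *Rps13-ps1* drops from 100% of E10.5 to 0% of E13.5 selected cells in pools 3 to 5, and the other cell sets show the same order.

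Markers of other blood lineages were found in a larger share of the E10.5 cells. More than 10 reads of at least 3 of 15 megakaryocyte genes were found in 7 of 26 E10.5 cells (26.9%, interval 11.6 to 47.8%) and 3 of 70 E13.5 cells (4.29%, 0.893 to 12.02%). The same counts held for 16 myeloid and mast cell genes, and 5 E10.5 cells and 1 E13.5 cell had both. The summed megakaryocyte level ran from 0 to 5580 RPM at E10.5 (median 42.9) and from 0 to 4251 RPM at E13.5 (median 3.78). The summed myeloid level ran from 0 to 1627 RPM (median 100.3) and from 0 to 982 RPM (median 5.24). *Gzmb* and *Mcpt8* are listed at 0 in every cell, which is not read as absence of expression.

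*Itga2b*, the megakaryocyte integrin CD41 that early progenitors also carry, was called higher at E10.5 at 99.7 and 20.9 RPM (-2.20). *Laptm5*, a leukocyte lysosomal gene, was called at 101.6 and 27.7 RPM (-1.84). *Mpo*, myeloperoxidase, was called at 17.7 and 0.263 RPM (-3.89) with more than 10 reads in 2 of 26 and 0 of 70 cells. Of 8 megakaryocyte genes compared, only *Pf4* was above 0, at 2.63 and 14.7 RPM (2.12), and it was not called. The median of these 8 was -1.82, with 0.13, -2.60 and 1.62 in pools 3, 4 and 5. The median of 6 myeloid and mast cell genes compared was -1.85, with -0.31, -4.29 and -0.17 in these pools. Of 9 endothelial genes, 3 or more were found in 1 cell of each stage. Without all cells that carried 3 genes of another lineage, 17 E10.5 and 64 E13.5 cells were left, and 587 genes were called higher at E13.5 and 358 at E10.5.

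In those remaining cells *Hbb-bh1* stood at 1298 and 25.6 RPM (-5.61), *Pim1* at 40.9 and 3.92 RPM (-3.09), *Cited4* at 662 and 308 RPM (-1.10), *Slc16a3* at 306 and 63.3 RPM (-2.26) and *Nfkbia* at 126.8 and 1642 RPM (3.68). There *Igf2bp2* stood at 3.88 and 3.77 RPM (-0.03) and *Lmo2* at 14.3 and 18.04 RPM (0.32). *Emb*, an adhesion gene called higher at E10.5 with more than 10 reads in 4 of 26 cells, stood at 7.72 and 0.573 RPM (-2.47) and was no longer called. A single cell gave 62.03% of its E10.5 reads. Y-linked reads were above 10 in 13 of 26 E10.5 and 26 of 70 E13.5 cells and at 0 in 7 and 19.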

How the data were processed

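Single-cell Smart-seq2 libraries of 653 cells in 4 groups (E10.5 and E13.5, bulk and Lgr5-GFP+) were available, in 5 library pools. The authors aligned reads to GRCm38 with STAR (2.6.0c), counted uniquely aligned reads per gene with featureCounts of Subread (1.6.2), both versions per the submitters' processing notes, and removed cells of low quality, with a minimum of detected genes that differed between sorts. The deposited table holds raw counts of 54195 genes, and 0 columns were left unused. The authors' normalised and batch-corrected table of variable genes (Scanpy 1.3.3 is among the tools named) was not used. Gene names and positions came from GENCODE vM21 (54128 genes named) and promoters from RefSeq.

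Counts were summed over the selected cells of a stage and divided by their reads on genes (RPM), with Python 3.11.15, numpy 2.4.6, pandas 2.3.3 and scipy 1.17.1. TMM factors came from edgeR 4.0.16, and no count model was fitted, because each stage is 1 sample. The script was also run on simulated data with known fold changes, from which no error rate of the calls is given here. Depth was 571050 to 2096858 reads in the selected cells. Intervals are exact Clopper-Pearson at 95%, and a count of 0 was given a limit of 3 counts.

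Named genes were the 12 with the largest ratio in each direction among called genes with more than 10 reads in at least 50% of the cells of the higher stage and a higher median there, the called genes of each list, and the rule and embryonic globin genes. A few genes are not reported here. Genes given as not called were picked from the lists after their values were seen. The members, the lists and the cell rule were chosen with earlier results of these data known. Each well received 1 sorted cell, gated as a singlet, and doublets were not searched for.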

Additional observations from a re-analysis of the deposited data

How the results depend on the processing

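Each result was recomputed under 23 alternatives, of which 3 were chosen after seeing the data (pools 3, 4 and 5 only, a limit of 2000 RPM on 7 globins, and leaving out the highest cell of each gene and stage). Of the genes compared, those called higher at E13.5 (452, 5.88%) became 807 (3.85%) with no filter on low values, 284 (3.70%) with 10 RPM added and 817 (10.94%) without pool 4. Those called higher at E10.5 (375, 4.88%) became 246 (3.20%) with 10 RPM added, 688 (8.95%), 681 (9.12%) and 647 (8.25%) without pools 3, 4 and 5, where fewer pools had to agree, and 865 (10.68%) when 1 read of *Klf1* and *Gata1* was enough. A filter of 50% of cells and 50 RPM left 345 calls among 4687 genes, 3.88% higher at E13.5 and 3.48% at E10.5. The last setting raised the E10.5 cells from 26 to 95, while leaving out pool 4 left 14 and leaving out cells with markers of another lineage left 17. The share of calls higher at E13.5, 54.7%, was 36.5% under the 1-read setting and 64.1% without the highest cells. Under the 1-read setting the ratio turned for *Slc16a1* (0.44), *Cited4* (0.19), *Ptpn6* (0.31), *Srebf2* (-0.59), *Ireb2* (-0.46), *Zfp36* (-0.48), *Rbl1* (-0.40), *Hmox1* (-0.95), *Dusp1* (-1.24), *Bcl2l11* (-0.050), *Cd24a* (-0.34), *Gapdh* (-0.48) and *Atf3* (-1.78). No called ratio of a named gene turned under the other 22. Of the 55 called genes taken by the naming rule, 8 kept their call under all 23 alternatives: *Nfkbia*, *Pde4b*, *Ftl1*, *Zfp36l2*, *Bbc3*, *Oaf*, *4930523C07Rik* and *Pigl*. TMM factors moved the median of all genes to 0.07. No paired analysis was possible because the labels give no replicate numbers that pair samples. The pools hold cells of both stages, and the ratio within pools 3, 4 and 5 is part of each call.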

Other observations

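Genes of other classes also led the genes named as higher at E10.5. *Efl1*, a GTPase of 60S ribosome maturation, had medians of 90.8 RPM at E10.5 and 0 RPM at E13.5 (log2 ratio -2.43). *Pigl*, an enzyme of GPI anchor synthesis, had medians of 33.8 and 0 RPM (-2.76), with more than 10 reads in 17 of 26 and 15 of 70 cells. *Bend3*, a repressor of transcription, had medians of 34.7 and 0 RPM (-2.86), with 17 of 26 and 9 of 70 cells. In the other bulk cells *Efl1* and *Pigl* had ratios of 0.19 and 0.17.

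*6030443J06Rik* had more than 10 reads in 21 of 26 E10.5 and 5 of 70 E13.5 cells (-2.44), and *Pcdh15*, a protocadherin gene, in 13 of 26 and 1 of 70 cells (-2.66). In the other bulk cells their ratios were -1.90 and -1.33. *H19*, an imprinted noncoding RNA picked after its value was seen, stood at 30.7 RPM at E10.5 and 6.31 RPM at E13.5 (-2.11), with the opposite sign in pool 5 (1.19).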
